A study of Homo sapiens with 20 samples.

Results

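The regions called for H3K4me3 and for H3K27ac in LNCaP cells after CTCF siRNA were set against each other, to find where the marks lay together, where each lay alone and which of them reached further. LNCaP is a prostate cancer cell line. The members were 4 of the 20 libraries of the series, 2 ChIP-seq libraries for each mark, from cells given 20 nM of a pool of CTCF siRNAs and collected at 144 h. The nearest comparison group was 4 LNCaP libraries of the same marks, at the same dose and time, from cells given a pool of non-targeting siRNAs (control siRNA). All these cells were transfected, transfected again after a split, and fixed in formaldehyde, so the control cells share the whole procedure with the depleted cells. The labels number the replicates and the study's methods call them biological duplicates, but neither says whether they were separate cultures, so p-values measure only the spread between these libraries.

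H3K4me3 is a trimethyl group placed on lysine 4 of histone H3, mostly around the starts of genes that are active or kept ready for activity, and above all where those starts are rich in CpG dinucleotides. H3K27ac is an acetyl group on lysine 27 of the same histone tail, placed by the acetyltransferases p300 and CBP at active promoters and at active enhancers. A start with both marks is the usual picture of a transcribed gene, H3K27ac away from starts that of an enhancer, and H3K4me3 without acetylation that of a gene start that is open but little used. CTCF is a zinc finger protein that binds DNA and, with cohesin, holds chromatin loops.

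A region of a mark was kept when regions of both of its libraries overlapped by at least 1 bp, on chromosomes 1 to 22 and X, and was given the outer ends of the regions merged. Kept regions of the 2 marks that overlapped by at least 1 bp were then merged into units. This gave 78547 units from 35452 kept H3K4me3 regions and 71710 kept H3K27ac regions. A unit held both marks, H3K4me3 only or H3K27ac only. A unit without a mark is one without a region called in both libraries, not one shown to lack it.

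Examples of the DNA under the 3 classes are shown first, because the classes differed most plainly in their CpG content. Each is 200 bases of the hg19 (GRCh37) reference, 5′ to 3′, with CpG dinucleotides in capitals. For genes these are the bases just before the start, taken for the first gene of a list with no annotated exon in them. HPRT1 (chrX:133593995-133594194, plus strand), a housekeeping gene of purine salvage, and KLK3 (chr19:51357971-51358170, plus strand), which encodes prostate-specific antigen, stand for gene starts with both marks.
HPRT1: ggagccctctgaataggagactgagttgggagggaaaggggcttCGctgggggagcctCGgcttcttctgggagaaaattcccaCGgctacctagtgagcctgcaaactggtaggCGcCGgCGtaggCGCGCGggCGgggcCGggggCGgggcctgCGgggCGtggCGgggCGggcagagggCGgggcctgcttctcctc
KLK3: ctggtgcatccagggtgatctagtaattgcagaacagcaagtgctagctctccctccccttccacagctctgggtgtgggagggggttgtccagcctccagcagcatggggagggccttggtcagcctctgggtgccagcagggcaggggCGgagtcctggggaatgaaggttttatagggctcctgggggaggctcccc
LHX2 (chr9:126773847-126774046, plus strand) and PAX2 (chr10:102505139-102505338, plus strand), transcription factors of brain and kidney development, stand for starts with H3K4me3 only.
LHX2: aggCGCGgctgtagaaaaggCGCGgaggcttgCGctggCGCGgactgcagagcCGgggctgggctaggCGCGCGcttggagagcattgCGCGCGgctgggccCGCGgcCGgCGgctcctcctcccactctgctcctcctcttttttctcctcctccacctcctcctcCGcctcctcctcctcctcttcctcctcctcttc
PAX2: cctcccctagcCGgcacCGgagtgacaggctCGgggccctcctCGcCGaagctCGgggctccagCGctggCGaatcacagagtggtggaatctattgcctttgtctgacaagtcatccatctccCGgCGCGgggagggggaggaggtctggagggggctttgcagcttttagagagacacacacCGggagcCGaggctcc
The centres of the widest H3K27ac-only units, in PPFIA2 (chr12:81940651-81940850) and KDM6A (chrX:44872126-44872325), are examples of that class, and are given on the plus strand. These 2 units are extremes of the class in width, and H3K4me3 replicate 2 alone had 2650 and 1050 bp in them.
PPFIA2 unit: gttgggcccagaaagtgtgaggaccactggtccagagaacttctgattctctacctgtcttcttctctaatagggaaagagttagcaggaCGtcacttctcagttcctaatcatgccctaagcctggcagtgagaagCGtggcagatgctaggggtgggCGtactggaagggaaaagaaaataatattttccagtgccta
KDM6A unit: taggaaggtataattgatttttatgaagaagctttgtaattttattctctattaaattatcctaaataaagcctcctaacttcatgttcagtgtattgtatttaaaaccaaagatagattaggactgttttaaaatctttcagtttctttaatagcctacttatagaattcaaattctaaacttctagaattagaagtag
The HPRT1, LHX2 and PAX2 windows held 17, 19 and 13 CpG dinucleotides. The KLK3 window held 1, although 62.5% of its bases were G or C, and the windows of the PPFIA2 and KDM6A units held 3 and 0.

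The lists of regions differed between libraries of a mark, and this limits every share given here. H3K4me3 regions numbered 41107 in replicate 1 and 59774 in replicate 2, and H3K27ac regions 94415 and 98973. The longer H3K4me3 list stood apart: 59.7% of its regions overlapped one of the other H3K4me3 library, against 89.2% in the opposite direction. The H3K27ac shares were 84.1% and 74.0%. The lists hold no read counts, so the depth behind a region is unknown here. The reads that the study lists for each library did not consistently follow the length of the lists. After CTCF siRNA the longer list of each mark came from the library with fewer reads, and in control cells from that with more. As a check of the treatment, CTCF peaks fell from 37969 and 46293 in the 2 control libraries to 3711 and 7716 after CTCF siRNA. The study lists far fewer reads for CTCF siRNA replicate 1 than for the other LNCaP CTCF libraries. The part of depth in its peak count was not tested.

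Most units in the depleted cells carried H3K27ac without H3K4me3, and H3K4me3 without H3K27ac was the rarest state. Both marks were found in 25946 units, or 33.0% (95% Wilson interval 32.7 to 33.4, which here and elsewhere covers counting error only). H3K4me3 alone was found in 7601 units, 9.68% (9.47 to 9.89), and H3K27ac alone in 45000, 57.3% (56.9 to 57.6). Measured by DNA covered, units with both marks took the largest part, 50.1%, against 44.2% for H3K27ac only and 5.73% for H3K4me3 only.

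Taken within 1 replicate number at a time, the both-mark share was 29.1% in replicate 1 and 33.2% in replicate 2, the H3K4me3-only share 8.87% and 15.3%, and the H3K27ac-only share 62.0% and 51.5%. The order of the classes was the same in both, but the spread of the single-mark shares was many times wider than the counting intervals. Shortening the lists also changed the order. It kept the lowest scores first, and wider regions first among equal scores, so list length and region width cannot be told apart here. When all 4 lists were shortened to the 41107 regions of the shortest, 42.4% of units held both marks, 24.5% H3K4me3 only and 33.1% H3K27ac only, so that the both-mark class became the largest. Without H3K4me3 replicate 1 the H3K4me3-only share was 21.9%, and without H3K27ac replicate 1 it was 6.35%. Leaving out the longer H3K4me3 list, replicate 2, gave 34.8%, 12.2% and 53.0% for the 3 classes.

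**Figure D1:**
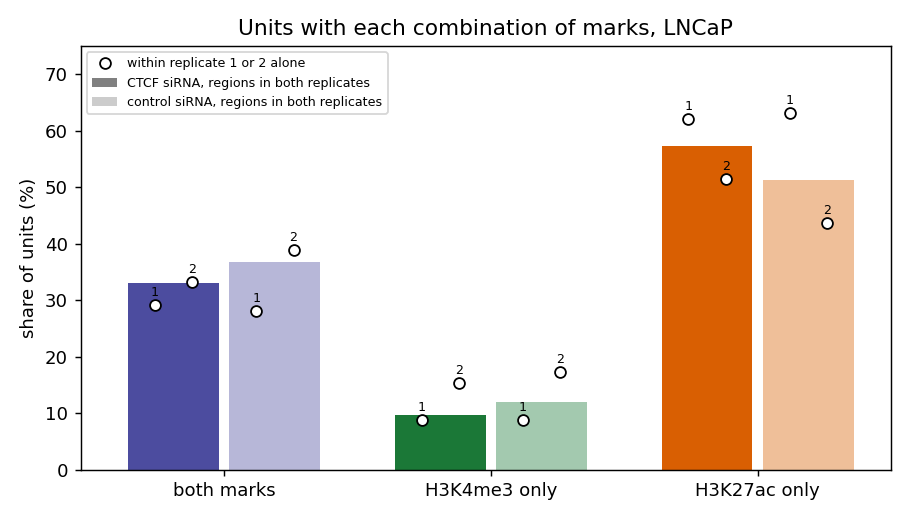
Share of units (%) with both marks, H3K4me3 only and H3K27ac only, after CTCF siRNA (dark bars) and control siRNA (pale bars), for regions in both replicates; the numbered points are the values within replicate 1 and replicate 2 alone. The order of the 3 classes is the same in each of the 4 replicate sets, and the points of the 2 treatments overlap in every class.

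The share of regions that overlapped the other mark differed between the marks, and so did the lengths of their lists. Of kept H3K4me3 regions, 78.6% overlapped a kept H3K27ac region, and of kept H3K27ac regions 37.2% overlapped a kept H3K4me3 region. By library, 76.0% and 66.8% of H3K4me3 regions overlapped kept H3K27ac, whereas 30.7% and 28.6% of H3K27ac regions overlapped kept H3K4me3. The 2 pairs of values did not overlap, and the exact permutation test, two-sided, gave p = 0.33, the smallest that 2 against 2 allows. Both shares count the same overlaps, over 35452 kept H3K4me3 and 71710 kept H3K27ac regions, so a longer list by itself lowers its share. The test cannot tell a difference between the marks from one of list length. With all 4 lists at one length the shares of kept regions were 65.2% and 56.5%, which is closer to each other.

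A unit with a single mark in both libraries often had the other in 1 library. Of the 7601 H3K4me3-only units, 77.9% had H3K27ac in neither library, 9.06% in replicate 1 only and 12.5% in replicate 2 only. Of the 45000 H3K27ac-only units, 73.4% had H3K4me3 in neither library, 4.50% in replicate 1 only and 21.8% in replicate 2 only, which is the library with the longer H3K4me3 list. When a mark found in either library was counted, the both-mark share rose to 50.4%, from 33.0%.

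Wide regions held the other mark more often. Among kept H3K4me3 regions, 61.6% of the 1052 narrower than 1 kb overlapped H3K27ac, 76.1% of those of 1.5 to 2 kb, 95.5% of those of 3 to 5 kb and 98.8% of the 1086 of 5 to 10 kb, with 96.8% of the 63 of 10 kb or more. Among kept H3K27ac regions the range was greater, from 7.80% of the 500 narrower than 1 kb, through 39.0% at 2 to 3 kb and 60.9% at 3 to 5 kb, to 86.3% of the 1267 of 10 kb or more. Within each replicate number the share rose with each step of width for both marks. H3K4me3 regions under 1 kb differed most between the replicate numbers, at 68.4% and 48.0%. A wider region also has more room to touch another, and its part in the result was not tested.

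**Figure D2:**
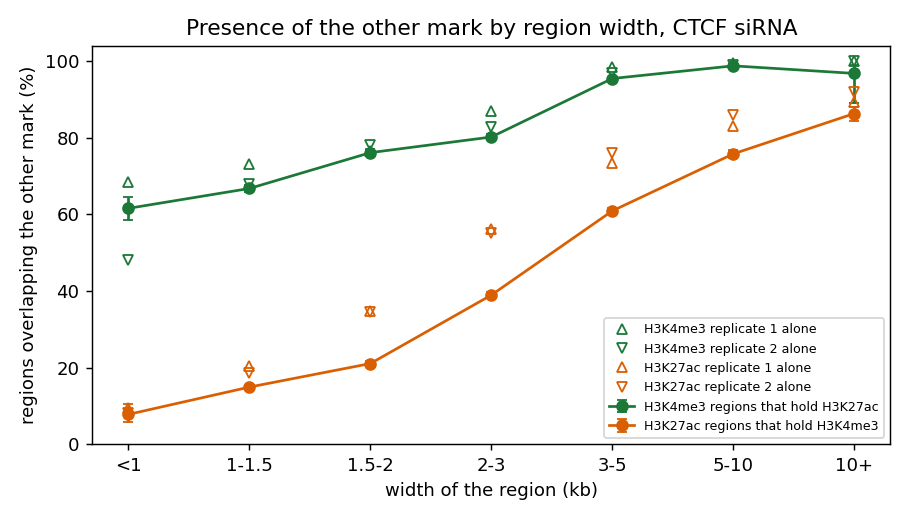
Share of regions (%) overlapping the other mark, by width of the region (kb), after CTCF siRNA. Lines with 95% Wilson intervals are regions kept in both replicates, open triangles are each replicate number alone; the H3K4me3 line runs from 61.6% to above 95% and the H3K27ac line from 7.80% to 86.3%.

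Single regions of the 2 marks were of similar width. Median widths were 1250 bp in both H3K4me3 libraries, and 1350 and 1700 bp in the H3K27ac libraries. The groups did not overlap (exact permutation test, two-sided, p = 0.33, the smallest possible), but the H3K27ac libraries differed from each other by more than the lower of them differed from H3K4me3. After merging over libraries the medians were 1850 bp for H3K4me3 and 2100 bp for H3K27ac, a ratio of 1.14. The ratio turned below 1 without H3K27ac replicate 1, at 0.919, or replicate 2, at 0.730, where the H3K27ac regions left are not merged and so are narrower by construction. Units with both marks were wider, with a median of 3300 bp (quartiles 2400 and 4650), than units with H3K4me3 only, 1450 bp (1200 and 2000), or H3K27ac only, 1800 bp (1400 and 2450). Both-mark units are joined from regions of 2 marks and so are wider by construction.

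Where the marks shared a unit, H3K27ac usually reached further. The ratio of H3K27ac extent to H3K4me3 extent, both in bp summed within the unit, had a median of 1.40 (quartiles 1.00 and 2.00), with 1.46 in replicate 1 and 1.52 in replicate 2. H3K27ac was the wider mark in 74.4% of both-mark units and H3K4me3 in 23.9%. In 61.1% all H3K4me3 lay inside H3K27ac, and in 15.7% all H3K27ac lay inside H3K4me3. H3K27ac covered 91.2% of the H3K4me3 in these units, and H3K4me3 covered 59.1% of the H3K27ac. Nearly all of them, 92.0%, held a single region of each mark. The ratio was lowest where H3K4me3 was 3 to 5 kb wide, at 1.03, and higher both below 1.5 kb, at 1.86, and above 10 kb, at 1.56 over 216 units. Units are grouped here by the extent that the ratio divides by, so narrow H3K4me3 favours a high ratio. The part of place in this pattern was not tested.

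The relative extent differed by place. Units were called gene start when within 1000 bp of the start of an annotated gene, then exon, intron or intergenic. At gene starts the median ratio was 1.05 (quartiles 0.833 and 1.44), so the marks had nearly the same extent, with 0.970 in replicate 1 and 1.06 in replicate 2, which lie on either side of 1. Away from gene starts the median was 1.83 in exons, 1.72 in introns and 1.55 in intergenic DNA, and all replicate values there were between 1.62 and 2.06, above both values at gene starts. H3K27ac was the wider mark in 54.3% of both-mark units at gene starts and in 92.8% of those in introns. The H3K4me3 of these units had a median extent of 3300 bp at gene starts and 1500 bp in introns, while H3K27ac had 3400 and 2650 bp.

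**Figure D3:**
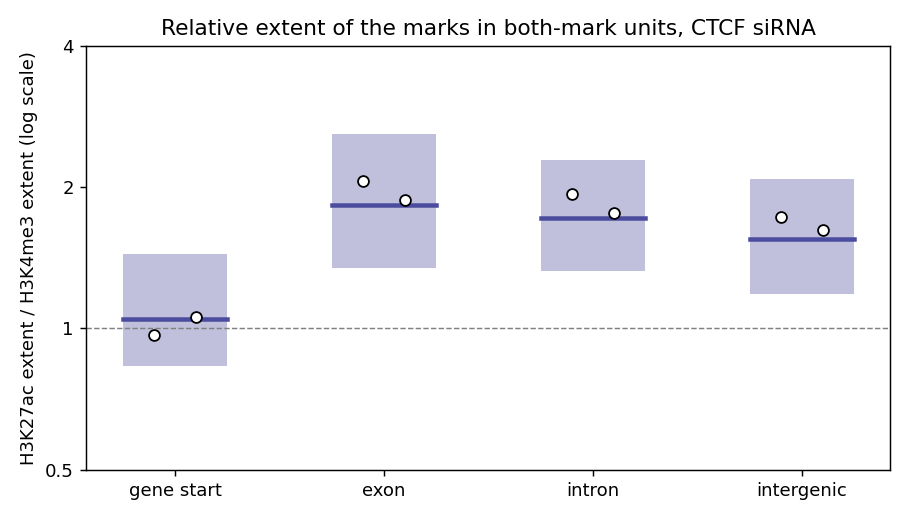
Ratio of H3K27ac extent to H3K4me3 extent (log scale) in both-mark units after CTCF siRNA, by place. Thick lines are medians, boxes run between quartiles, and points are the medians within replicate 1 (left) and 2 (right); gene starts sit near 1 and the other places between 1.55 and 1.83.

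Around the start itself the marks were not symmetrical. For this, 6700 units with 1 region of each mark and exactly 1 protein-coding start were used, and in 6271 of them, 93.6%, the start lay inside both regions. H3K4me3 reached a median of 1314 bp upstream and 1896 bp downstream of the start, and H3K27ac 1378 and 1712 bp. H3K4me3 reached further down than up in 83.6% of them and H3K27ac in 64.6%. At 1000 bp downstream, 96.6% of units were covered by H3K4me3 and 84.9% by H3K27ac, and at 1500 bp 84.5% and 60.2%. At 3000 bp downstream the order was the opposite, with 7.30% for H3K4me3 and 17.97% for H3K27ac. H3K4me3 thus ended within a narrow range, whereas H3K27ac ended early at some starts and late at others.

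**Figure D4:**
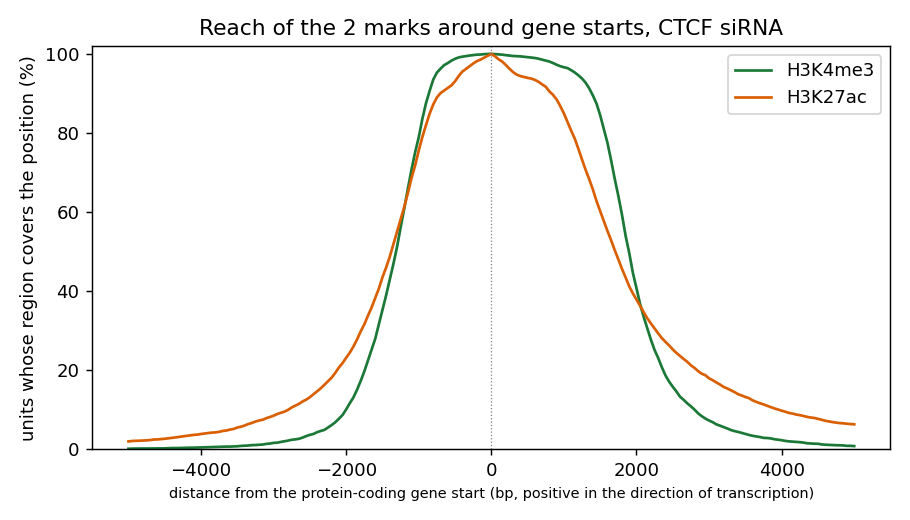
Share of units (%) whose region covers each position, against distance from the protein-coding start (bp, positive in the direction of transcription), for 6271 units with the start inside both regions after CTCF siRNA. The H3K4me3 curve falls steeply beyond 1500 bp downstream, and the H3K27ac curve lies below it there and above it at 3000 bp on either side.

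The classes lay at different places. A gene start was within 1000 bp of 43.8% of both-mark units (43.2 to 44.4), 40.8% of H3K4me3-only units (39.7 to 41.9) and 7.42% of H3K27ac-only units (7.18 to 7.66). By replicate number these shares were 39.5% and 33.2%, 34.98% and 22.2%, and 6.19% and 6.56%, so the classes with H3K4me3 stood well above the third in each, while the order of the first and second classes was kept in both. With protein-coding starts alone the H3K27ac-only share was 1.24%, and with a distance of 2500 bp it was 13.1%. H3K27ac-only units lay mostly in introns, 47.0%, with 21.4% in exons and 24.3% between genes. H3K4me3-only units were more often intergenic, 25.4%, than both-mark units, 14.0%, which was not compared at like width. The median distance of an H3K4me3-only unit to the nearest kept H3K27ac region was 22450 bp, and 29.0% had none within 50000 bp. The nearest both-mark unit lay at a median of 51250 bp from H3K4me3-only units and 20350 bp from H3K27ac-only units.

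Seen from genes, 20098 protein-coding genes were classed by the kept regions within 1000 bp of the start of their canonical transcript. Both marks were found at 10789 starts, 53.7% of all, H3K4me3 only at 2380, 11.8%, H3K27ac only at 600, 2.99%, and neither at 6329, 31.5%. Long non-coding RNA genes held both marks at 21.0% of 18592 starts, H3K4me3 only at 5.88% and H3K27ac only at 8.70%. Within replicates 1 and 2 the both-mark share of protein-coding starts was 54.1% and 56.0%, and the H3K4me3-only share 11.3% and 12.7%.

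Most genes of the prostate lineage carried both marks, and H3K27ac was the wider mark at most of these. Of 20 prostate luminal and androgen-regulated genes, 17 had both marks, against 53.7% of all protein-coding starts, 1 had H3K27ac only and 2 neither. At their starts the median extent of the regions was 4500 bp for H3K4me3 and 17100 bp for H3K27ac. H3K27ac was the wider mark at 15 of the 17, against 54.3% of all both-mark units at gene starts, which were measured over whole units. H3K4me3 was wider at 2, NDRG1 with 3850 against 2900 bp and TRPM4 with 2550 against 2000 bp. PMEPA1, with 6050 bp of H3K4me3 and 6900 bp of H3K27ac, was close to equal. At KLK3, the gene of prostate-specific antigen, the unit (chr19:51332551-51366600) held 10000 and 14050 bp of H3K4me3 in replicates 1 and 2 and 31550 and 34050 bp of H3K27ac. Each H3K27ac library exceeded each H3K4me3 library there by more than the spread within a mark. KLK15 shares that unit and was the gene with H3K27ac only, since no H3K4me3 lay within 1000 bp of its start.

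The unit at KLK2, a related secreted protease (chr19:51367351-51413650), held 6400 and 11450 bp of H3K4me3 and 43350 and 46200 bp of H3K27ac. KLK4 was counted as without a mark because its start lay 1001 bp from the end of that unit, just outside the limit, and with a limit of 2500 bp it had both marks. TRPM8, a cation channel gene, was the other without a mark, and the nearest unit lay 4383 bp from its start. FOXA1 (chr14:38053851-38082550), a pioneer transcription factor of the forkhead family, had 13200 and 13550 bp of H3K4me3 and 26600 and 28700 bp of H3K27ac.

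HOXB13 (chr17:46791601-46808700), a homeobox gene of the prostate, had H3K4me3 over 12900 and 13250 bp and H3K27ac over 15250 and 17100 bp. TMPRSS2 (chr21:42862051-42882250), an androgen-regulated protease gene, had 9500 and 10300 bp against 19500 and 19850 bp. FKBP5, a chaperone gene induced by androgen, had its start in an H3K27ac-only unit of 1250 bp. The both-mark unit that ended at the base before it (chr6:35653801-35656500) held H3K4me3 over 2500 and 2600 bp. H3K27ac covered 1950 and 2550 bp of that unit. Over all kept regions within 1000 bp of the FKBP5 start, H3K27ac was the wider mark, with 3800 bp against 2600 bp.

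All 20 housekeeping genes had both marks, against 53.7% of all protein-coding starts, with a median of 4350 bp of H3K4me3 and 5675 bp of H3K27ac. GAPDH (chr12:6637201-6649600), a glycolytic enzyme gene, had H3K4me3 over 4950 and 5800 bp and H3K27ac over 12100 and 12200 bp. ACTB (chr7:5562251-5573800), the gene of beta-actin, had 5600 and 7100 bp against 9950 and 11400 bp. All 13 CTCF and cohesin genes had both marks, again against 53.7%, with medians of 4000 and 4150 bp. The start of CTCF itself (chr16:67594101-67601650) had H3K4me3 over 3900 and 4700 bp and H3K27ac over 5000 and 6600 bp in cells given siRNA against its transcript.

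Of the enzymes that write or remove these marks, all 16 H3K4 methyltransferase and demethylase genes had both, and 13 of 15 histone acetylation genes did, against 53.7% of all starts. The other 2 had H3K4me3 only, and were CREBBP, which encodes the H3K27 acetyltransferase CBP, and KAT2B, which encodes the acetyltransferase PCAF. Their H3K4me3 extended over 3650 and 3100 bp. CREBBP had both marks when replicate 1 was taken alone, and KAT2B in neither replicate.

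Developmental transcription factors showed the opposite balance to the prostate genes. Of 24, 9 had H3K4me3 only, against 11.8% of all starts, 4 had both marks, 11 had neither and 0 had H3K27ac only. The 4 with both were GATA6, EN2, IRX3 and WT1. In each H3K4me3 was the wider mark, from 3500 bp at IRX3 with 3000 bp of H3K27ac to 4200 bp at EN2 with 1450 bp. Among all both-mark units at gene starts, H3K27ac was the wider mark in 54.3%. Those were measured over whole units at starts of any annotated gene, and the 4 genes over the regions near their starts. PAX6 (chr11:31831401-31833000), an eye and brain regulator, had H3K4me3 over 1300 and 1600 bp and H3K27ac in neither library. LHX2 and PAX2, shown above by their sequence, had H3K4me3 over 2050 and 1850 bp and H3K27ac in neither replicate taken alone. PAX2 had no kept region of either mark in control cells.

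Genes of other cell types were used as a check of the cell line. None of 8 blood genes had either mark. Of 10 fibroblast genes, 5 had neither, 3 had H3K4me3 only (THY1, PRRX1 and FN1) and 2 had both (COL1A1 and VIM). At COL1A1 (chr17:48276001-48279150), a collagen gene, H3K4me3 covered 2400 and 3050 bp and H3K27ac 1750 and 2100 bp, so H3K4me3 was the wider mark in each replicate number. The fibroblast share with both marks was below the 53.7% of all protein-coding starts, and the prostate share above it.

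Gene families taken by symbol, after the values above were seen, spanned a wide range. They are to be read against 53.7% of all protein-coding starts with both marks, 11.8% with H3K4me3 only, 2.99% with H3K27ac only and 31.5% with neither. Of 95 ribosomal protein genes 94.7% had both marks, and of 515 ZNF genes, which encode zinc finger proteins, 77.1% had both and 11.5% H3K4me3 only, the latter close to the share of all starts. Of 39 HOX genes, the body-plan regulators, 33.3% had both, 23.1% H3K4me3 only and 38.5% neither. Of 415 olfactory receptor genes 97.1% had neither. Of 55 keratin genes 12.7% had H3K27ac only, 7.27% both marks, 80.0% neither and 0 H3K4me3 only. Within replicate 2 alone the keratin shares with H3K27ac only and with both marks were equal, at 10.9%.

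The widest units were long stretches of H3K27ac, mostly called as several neighbouring regions in a library and joined where the libraries were merged, with H3K4me3 in a small part of them. The widest of all, at PPP3CA (chr4:102030951-102273600), which encodes a subunit of calcineurin, was 242650 bp long, with 240900 bp of H3K27ac in 7 regions of replicate 1, 242150 bp in 4 regions of replicate 2, and 13400 and 25550 bp of H3K4me3. The next were at ST3GAL1, a sialyltransferase gene on chromosome 8, 132500 bp, and at ABHD2 (chr15:89630001-89750950), 120950 bp, with ratios of 10.0 and 6.03. All 3 had H3K27ac of at least 116550 bp in control cells too.

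The widest H3K27ac-only units were at PPFIA2 (chr12:81902851-81978650), 75800 bp, at KDM6A (chrX:44847701-44896750), 49050 bp, and at PRKD1 (chr14:30197351-30245550), 48200 bp. H3K4me3 replicate 1 had 0 bp in all 3, and replicate 2 had 2650, 1050 and 2850 bp. The widest H3K4me3-only units were shorter: 16350 bp in intergenic DNA (chr2:89830951-89847300), 10950 bp at ZNF717 (chr3:75783901-75794850) and 8900 bp in intergenic DNA (chr7:61742151-61751050). H3K27ac replicate 1 had 1550, 3600 and 2900 bp in them and replicate 2 had 0 bp. They are listed as H3K4me3 only because the H3K27ac regions were in 1 library.

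CpG content separated the classes. In the 300 bases at the centre of each unit, the ratio of observed CpG to the number expected from the C and G present had a median of 0.340 in both-mark units, 0.602 in H3K4me3-only units and 0.164 in H3K27ac-only units. The centre was the middle of the widest H3K4me3 region, or of the widest H3K27ac region where there was no H3K4me3, so it is placed differently in the classes. A ratio of at least 0.6, a customary mark of CpG islands, was reached by 50.2% of H3K4me3-only windows, 31.1% of both-mark windows and 0.820% of H3K27ac-only windows, against 15.6% of all 78545 windows. At gene starts the medians were 0.711 for both marks, 0.770 for H3K4me3 only and 0.177 for H3K27ac only. These starts differ in kind. A protein-coding start was near 9308 of the 11357 units with both marks, 2336 of 3100 with H3K4me3 only and 559 of 3338 with H3K27ac only. Away from starts, H3K4me3-only units had higher ratios than both-mark units: 0.382 against 0.194 in introns and 0.454 against 0.214 between genes. Over whole units the medians kept the same order, 0.299, 0.489 and 0.195 for both marks, H3K4me3 only and H3K27ac only. Of the sequences printed above, those of HPRT1, LHX2 and PAX2 had ratios of 0.741, 0.813 and 0.619, and those of KLK3, the PPFIA2 unit and the KDM6A unit 0.0527, 0.260 and 0.

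**Figure D5:**
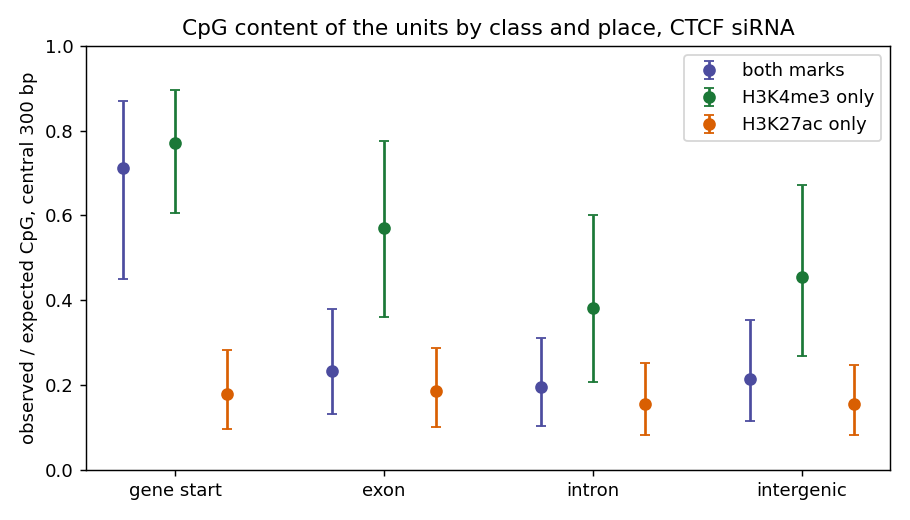
Observed over expected CpG in the central 300 bases of units after CTCF siRNA, by place and class; points are medians and bars run between quartiles. The medians of H3K27ac-only units lie below 0.19 in every place, and the medians of H3K4me3-only units above those of both-mark units in every place.

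Motif letters in the same windows, on either strand, followed a like division. None of the letter strings searched contains another, and a match is only a match of letters. GGGCGG, the GC box, was in 34.6% of H3K4me3-only, 25.8% of both-mark and 4.05% of H3K27ac-only windows, against 14.2% of all windows and 61.2% of 300-base windows at protein-coding starts. CCGGAAG, an ETS site, was in 3.71%, 4.73% and 0.973%, against 2.48% of all. TGACTCA, the AP-1 site, ran the other way, with 3.04%, 5.42% and 9.27%, against 7.40% of all. TGTTTAC, a forkhead site, was in 7.45%, 8.35% and 9.13% of windows, and away from gene starts in 11.0%, 12.2% and 9.22%, so its order depended on place. CCAAT was in 25.8%, 30.4% and 35.6%, the CRE letters TGACGTCA in 0.342%, 0.482% and 0.120%, and the NRF1 letters GCGCATGCG in 0.566%, 0.617% and 0.0156%, each in the order H3K4me3 only, both, H3K27ac only. Away from gene starts the order of the ETS, NRF1 and CRE letters changed too. There, in the same order of classes, ETS was in 2.64%, 1.51% and 0.967%. NRF1 was in 0.422%, 0.123% and 0.0144%, and CRE in 0.111%, 0.260% and 0.118%. GC-rich letters are more frequent in GC-rich windows, and the median GC content was 57.0%, 49.7% and 43.7% in that order.

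CTCF sites of the control cells lay more often in units with H3K4me3. A control site is a CTCF peak in both control libraries, and there were 33377. One was present in 14.9% of both-mark units (14.5 to 15.3), 16.2% of H3K4me3-only units (15.4 to 17.0) and 5.35% of H3K27ac-only units (5.15 to 5.57). Per Mb of unit this was 38.8, 100.6 and 25.5 sites. Among units of like width the order was the same, but the gap between the classes with H3K4me3 varied. Under 1.5 kb the shares were 8.73%, 14.1% and 3.64%, at 1.5 to 2.5 kb 9.26%, 19.0% and 4.79%, and at 2.5 to 4 kb 12.6%, 15.8% and 7.30%, in the order both marks, H3K4me3 only and H3K27ac only. From 4 kb they were 21.7%, 30.0% and 11.7%, with 50 H3K4me3-only units. Of all control sites, 3091 still had a peak in both CTCF siRNA libraries. These were in 4.45% of H3K4me3-only units (4.01 to 4.93), 1.30% of both-mark units (1.17 to 1.44) and 0.449% of H3K27ac-only units (0.391 to 0.515). By single CTCF siRNA library, a peak was present in 5.96% and 7.10%, 1.80% and 3.21%, and 0.484% and 1.18% of the same classes, and the values of the classes did not overlap. Sites with a peak in both libraries kept this order of classes at like width, but the gaps varied. Under 1.5 kb the shares were 4.66%, 3.35% and 0.603%, and at 1.5 to 2.5 kb 5.03%, 1.51% and 0.347%. They were 1.73%, 1.09% and 0.485% at 2.5 to 4 kb, and 2%, 1.20% and 0.416% from 4 kb.

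Chromosomes differed in their makeup. Chromosome 19 had the highest share of both-mark units, 47.3%, and of H3K4me3-only units, 14.3%, and the lowest of H3K27ac only, 38.4%. Chromosome 18 had the lowest both-mark share, 20.5% of 1215 units, and the X chromosome followed with 23.03% of 1980. The median extent ratio was 0.988 on X and 1.07 on chromosome 18, the 2 lowest, and 1.51 on chromosome 1, the highest.

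Set against control cells, the balance of the marks did not differ beyond the spread of the replicates. With the control libraries treated alike, 61487 units were found, of which 36.7% held both marks, 12.01% H3K4me3 only and 51.3% H3K27ac only. Within replicate numbers the both-mark share averaged 31.2% ± 2.86 (SD, n = 2) after CTCF siRNA and 33.5% ± 7.69 in control cells, the H3K4me3-only share 12.1% ± 4.56 and 13.1% ± 6.07, and the H3K27ac-only share 56.7% ± 7.42 and 53.4% ± 13.8. In each, the values of the 2 treatments overlapped (exact permutation test, two-sided, p = 1). The extent ratio was 1.46 and 1.52 after CTCF siRNA and 1.40 and 1.19 in control cells, and the ratio of median widths 1.08 and 1.36 against 1.04 and 1.04. For these 2 measures the treatments did not overlap (exact permutation test, p = 0.33, the smallest possible). With the 4 lists of each mark at one length, 36492 for H3K4me3 and 69949 for H3K27ac, both overlapped again (exact permutation test, p = 1), with extent ratios of 1.43 and 1.38 against 1.44 and 1.08.

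Unit by unit, 74.9% of both-mark units also held both marks in control cells, 16.8% held H3K27ac only and 4.81% H3K4me3 only. Of H3K4me3-only units, 60.2% were H3K4me3 only in control cells and 32.9% had neither mark in both control libraries. Of H3K27ac-only units, 47.8% were H3K27ac only in control cells and 47.2% had neither. When any single control library counted, those with neither mark were 22.1% of H3K27ac-only units, 14.0% of H3K4me3-only units and 0.617% of both-mark units. The control H3K27ac lists were shorter, at 86949 and 69949 regions, and the part of list length in these shares was not tested.

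Classed by gene starts, which unlike units can have neither mark, the cells were compared once more. The class was the same in CTCF siRNA and control cells at 18552 of 20098 protein-coding starts, 92.3%, and the same in replicates 1 and 2 of the CTCF siRNA cells at 91.9%. The first share uses regions kept in both libraries and the second the lists of single libraries. The 2 shares are therefore unlike measures and do not weigh the treatment against the spread of replicates. By class after CTCF siRNA, 93.7% of starts with both marks, 81.3% with H3K4me3 only and 97.9% with neither had the same class in control cells. Of the 600 starts with H3K27ac only, 52.0% did, and 42.8% had neither mark in control cells. The most frequent difference was 554 starts with both marks after CTCF siRNA and H3K4me3 only in control cells. The opposite change was found at 149 starts. The control H3K27ac lists were shorter, and the part of list length in these 2 counts was not tested. HPRT1 and the mitochondrial enzyme gene SDHA among the housekeeping genes, GATA6 and EN2 among the developmental genes and VIM among the fibroblast genes were of the first kind. Their H3K27ac extents in the kept regions were 2400, 1200, 1650, 1450 and 2300 bp.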

How the data were processed

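LNCaP cells were profiled by ChIP-seq in 2 libraries per mark and treatment. The authors aligned 50-bp single-end reads to hg19, removed duplicate and ambiguous reads and called regions with PeakRanger in each library separately; no input library or version is given in the sources used here. The deposited lists hold the position of each region, in steps of 50 bp, and a score whose meaning the authors do not give. It takes 10 to 18 values per list, and lower scores sit on wider regions, so it was used here only to shorten lists. Shortening kept the lowest scores first, and the wider region first among equal scores, so shortened lists favour wide regions. The lists give no read counts, and presence or absence of a region does not measure height. CTCF peaks were those the authors deposited.

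Groups and replicate numbers came from the labels. Regions on chromosomes 1 to 22 and X counted as overlapping from 1 shared bp. Genes were from GENCODE release 44 on GRCh37, with the start of the canonical transcript, and 0 of 23 chromosomes had a region past the end of the GRCh37 sequence. Gene starts without a canonical transcript took the outermost start. Coordinates count from 1. Shares have 95% Wilson intervals, and groups of libraries were compared with the exact permutation test, two-sided. On 6000 simulated positions, all 5386 simulated units were found, with 100% in the right class. Python 3.11.15, numpy 2.4.6, pandas 2.3.3, scipy 1.17.1 and matplotlib 3.10.9 were used.

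The members and gene lists were chosen with earlier results of these data known. Named were the 3 widest units of each class, 13 chosen genes (prostate genes, CTCF, GAPDH, ACTB, PAX6 and COL1A1), and from each list the genes in its rarest classes, at most 6. The result for 1 of the chosen genes is not reported here. Genes named for their sequence, for H3K4me3 alone among the developmental genes, as exceptions among the prostate genes or for a change from control cells were chosen after their values were seen. The alternatives tried were other overlaps, joining of neighbouring regions, other replicate rules, shortened lists, a score limit, a minimum width, all contigs, other gene starts, pairing by replicate number and leaving out each library. IMR90 libraries were not used here.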

Additional observations from a re-analysis of the deposited data

How the results depend on the processing

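Requiring an overlap of 50% of the shorter region, or using all contigs, moved none of the 7 main measures by more than 1 SD between replicate numbers. With all 4 lists at one length all 7 moved: 42.4% of units held both marks, 24.5% H3K4me3 only and 33.1% H3K27ac only, 65.2% of H3K4me3 and 56.5% of H3K27ac regions held the other mark, and the width and extent ratios were 1.50 and 1.47. With the other mark counted in either replicate, 50.4% held both, 42.0% held H3K27ac only, and 54.0% of H3K27ac regions held H3K4me3. With a region in either replicate, 72.5% of H3K4me3 regions held H3K27ac and the extent ratio was 1.54. The extent ratio was 1.46 with regions up to 1000 bp apart joined, 1.36 with the lists of a mark at equal length, 1.21 with the lowest-score 50% of each list and 1.30 with a minimum width of 1000 bp.

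Leaving out each library in turn gave both-mark shares of 25.9% to 39.5%, H3K4me3-only shares of 6.35% to 21.9%, H3K27ac-only shares of 38.6% to 67.7%, 66.8% to 81.3% of H3K4me3 regions with H3K27ac, 28.6% to 51.1% of H3K27ac regions with H3K4me3, width ratios of 0.730 to 1.68 and extent ratios of 1.14 to 1.85. A mark left with 1 library has regions that are not merged, and so narrower by construction, and the width ratio fell below 1 without H3K27ac replicate 1 (0.919) or replicate 2 (0.730). Without H3K4me3 replicate 1 the both-mark share was the largest of the 3, at 39.5% against 38.6% with H3K27ac only.

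The replicate numbers are shared by the marks, but nothing in the labels says that they mark a common batch. Deviations of same-numbered libraries of the 2 marks correlated at 0.148 over 3049 bins of the genome after CTCF siRNA and at -0.291 in control cells. The replicate block, each measure within a number and then averaged, gave an extent ratio of 1.49 and moved none of the other 6 measures by more than 1 SD. With the control numbers crossed, a choice made after seeing the data, the difference from control cells in H3K4me3 regions with H3K27ac turned from 0.25 to -0.40 percentage points. The other 6 kept their direction, also at equal list lengths, as did this one there. Taking the outermost start of any transcript, also a later choice, gave 51.3% of protein-coding starts with both marks and 3.48% with H3K27ac only, and a distance of 2500 bp gave 55.9% and 4.22%. Depth is not given by the lists, so a mark not called may be a mark not detected.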
